A study of Mus musculus with 24 samples.

Results

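The 9 genes described here encode the CD3 chains Cd3d, Cd3e and Cd3g, the coreceptor chains Cd4, Cd8a and Cd8b1, the kinases Lck and Zap70 and the adaptor Lat. They were taken by symbol from the 24447 genes of the count matrix, and all 9 were present. NK1.1+CD3e+ cells were sorted from the livers of C57BL/6 mice aged 8 to 10 weeks, picked one at a time and sequenced with unique molecular identifiers (UMIs), which count RNA molecules. The mice were wild type (WT), Jα18-deficient or CD1d-deficient. The second genotype has no type I NKT cells. The third has neither type, as both depend on CD1d to be selected and to see antigen. The labels list 8 libraries for each genotype, but cells are named in the matrix only by genotype and number. The cells of a genotype therefore formed 1 pool, no test was possible between genotypes, and the intervals given for a pool cover counting error only, not differences between mice or libraries.

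In a T cell, the CD3 chains carry the signal of the T cell receptor into the cell. Lck, bound to the tails of CD4 and CD8, phosphorylates them, Zap70 then docks and phosphorylates Lat, and Lat collects the enzymes of the next step. CD8 is made either as a dimer of alpha chains, which is common on innate-like T cells and is also found on NK cells of some species, or as a dimer of an alpha chain (Cd8a) and a beta chain (Cd8b1), the form of conventional cytotoxic T cells. Mouse liver type I NKT cells are known to carry CD4 or neither coreceptor.

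The WT pool held 623 cells and 34102694 UMIs, the Jα18-deficient pool 725 cells and 60484252 UMIs, and the CD1d-deficient pool 387 cells and 14536585 UMIs. The median depth was 40467, 46670 and 13508 UMIs per cell in this order. To compare shares of cells with a UMI at equal depth, each cell was thinned at random to 10000 UMIs, which left 523, 632 and 227 cells and left out 353. Cd1d1, the gene removed in CD1d-deficient mice, had 854 UMIs in WT, 934 in Jα18-deficient and 0 in CD1d-deficient cells, where a count of 0 allows up to 0.206 counts per 1000000 UMIs (CPM). Of the markers of other cells, B cell, hepatocyte and erythroid genes summed to at most 14.4 CPM in a pool. Myeloid genes summed to 87.6 CPM in WT, 23.3 in Jα18-deficient and 615 in CD1d-deficient cells, nearly all of it Lyz2, which had a UMI in 90.7% of the thinned CD1d-deficient cells. NK receptor and adaptor genes, which NKT cells also express, summed to 3092, 5829 and 10164 CPM. The part of these genes in the results below was not tested.

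Cd3g and Cd3d lie head to head on chromosome 9 of NCBIM37 (mm9), with Cd3g from 44777655 to 44788514 on the minus strand and Cd3d from 44789876 to 44795135 on the plus strand, so that 1362 bases separate their starts. Cd3e follows from 44806826 to 44817673 on the minus strand. On chromosome 6, Cd8b1 (71272830 to 71287471) ends 35950 bases before Cd8a (71323421 to 71329165) starts, both on the plus strand, and Cd4 lies farther along, from 124814710 to 124838239 on the minus strand. Lat is on chromosome 7 from 133507346 to 133513057 (minus strand), Lck on chromosome 4 from 129225588 to 129250885 (minus strand) and Zap70 on chromosome 1 from 36818695 to 36839663 (plus strand). The 250 bases before the start are shown for Cd3g and Cd3d, whose levels differed least between the pools, and for Cd8a, whose level differed widely, from RefSeq on GRCm38.p6 (chr9:44980432-44980681, minus strand; chr9:44981536-44981785, plus strand; chr6:71373177-71373426, plus strand). Each is written on the strand of its gene. Capitals mark GGAA, the core bound by ETS factors, or TTCC, the same core on the other strand.
Cd3g: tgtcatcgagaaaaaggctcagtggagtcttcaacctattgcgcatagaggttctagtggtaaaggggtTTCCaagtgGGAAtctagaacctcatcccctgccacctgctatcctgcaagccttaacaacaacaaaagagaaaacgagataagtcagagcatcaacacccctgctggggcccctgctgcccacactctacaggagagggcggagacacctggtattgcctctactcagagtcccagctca
Cd3d: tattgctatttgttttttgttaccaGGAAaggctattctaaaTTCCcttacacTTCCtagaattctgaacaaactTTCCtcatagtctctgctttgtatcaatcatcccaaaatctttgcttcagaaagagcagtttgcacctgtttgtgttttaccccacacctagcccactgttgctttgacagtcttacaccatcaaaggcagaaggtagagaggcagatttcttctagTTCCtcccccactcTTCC
Cd8a: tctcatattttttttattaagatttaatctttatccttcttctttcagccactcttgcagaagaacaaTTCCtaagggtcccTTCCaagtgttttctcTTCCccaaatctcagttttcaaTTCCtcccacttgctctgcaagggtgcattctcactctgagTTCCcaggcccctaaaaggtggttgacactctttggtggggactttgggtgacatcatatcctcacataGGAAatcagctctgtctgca
The core occurred 2 times before Cd3g, 6 times before Cd3d and 6 times before Cd8a, in a search of both strands. It is common, with at least 1 match in 93.4% of the 32851 promoters of the same table and a median of 3 matches per promoter. TGTGGT, a site of RUNX factors that was searched on both strands, was in 14.05% of promoters and in 0 of these 3. Of the 9 genes, 7 were in the table.

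Cd3d and Cd3g were found in nearly every cell, and their levels hardly differed between genotypes. Cd3d, the delta chain, stood at 1566 CPM in WT cells (exact Poisson 95% interval 1552 to 1579), at 1625 in Jα18-deficient cells (1615 to 1635) and at 1492 in CD1d-deficient cells (1472 to 1512). Cd3g, the gamma chain, had 1375 CPM (1362 to 1387), 1323 (1314 to 1332) and 1457 (1438 to 1477) in the same order. On the log2 scale the ratios between pools lay between -0.12 and 0.14 for both genes, and the signs of some of them changed when TMM scaling factors or the mean over cells were used in place of the sums. A UMI of Cd3d was found in 98.5, 98.4 and 98.7% of thinned WT, Jα18-deficient and CD1d-deficient cells, and one of Cd3g in 99.0, 97.6 and 93.8%.

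Cd3e, the epsilon chain and the target of the antibody used in the sort, varied more. Its level was 255 CPM for WT (249.8 to 261), 352 for Jα18-deficient (348 to 357) and 196 for CD1d-deficient cells (189 to 204). The log2 ratio of Jα18-deficient over WT cells was 0.47, that of CD1d-deficient over WT cells -0.38, and that of CD1d-deficient over Jα18-deficient cells -0.84. The share of thinned cells with a UMI followed the same order, with 79.5% for WT (exact Clopper-Pearson 95% interval 75.8 to 82.9%), 87.5% for Jα18-deficient (84.7 to 90.0%) and 70.9% for CD1d-deficient cells (64.6 to 76.7%). The intervals of the WT and CD1d-deficient shares overlap. For each UMI of Cd3e WT cells held 6.14 UMIs of Cd3d, Jα18-deficient cells 4.61 and CD1d-deficient cells 7.59. UMIs are not divided by gene length, and genes can differ in how well they are captured, so this ratio is read between pools and not as a difference in level between the chains.

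**Figure D1:**
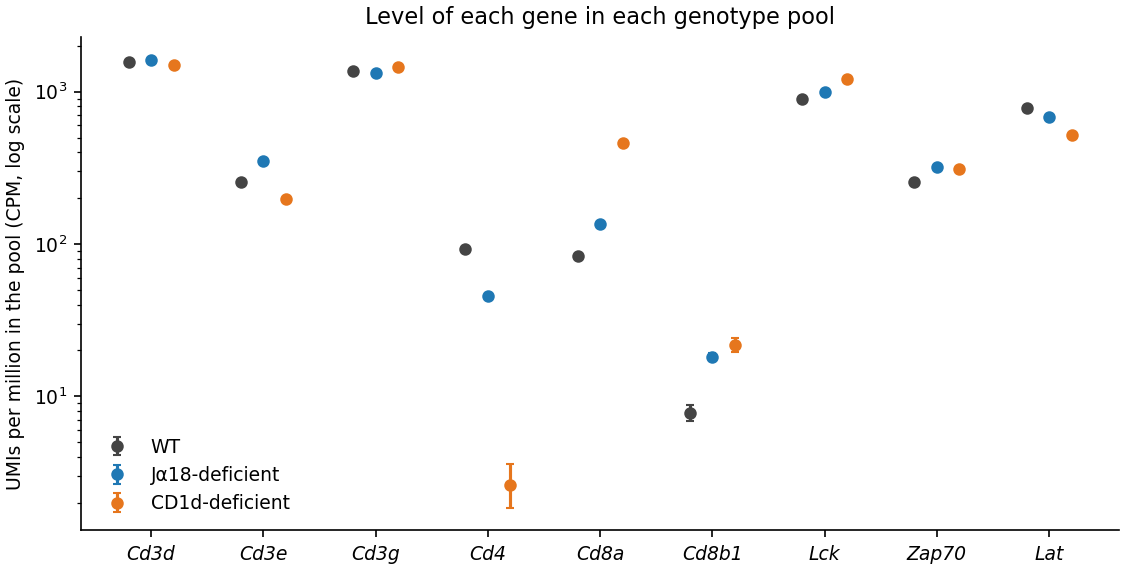
Level of the 9 genes in each genotype pool, in CPM on a log axis, with exact Poisson 95% intervals (often smaller than the points). Cd4 is at 93.3 CPM in WT and 2.61 in CD1d-deficient cells and Cd8a at 82.8 and 460, while the CD3 chains, Lck, Zap70 and Lat differ by less than 1 on the log2 scale.

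The share of cells with a UMI of each of the 3 chains was 78.2% for WT, 84.7% for Jα18-deficient and 68.7% for CD1d-deficient cells at equal depth, and only 2 of the 1382 thinned cells had none. The 107 WT, 79 Jα18-deficient and 66 CD1d-deficient thinned cells without Cd3e had 1440, 1474 and 1574 CPM of Cd3d in their full counts, and 1223, 1141 and 1546 of Cd3g. In the full counts, the 186 cells without Cd3e had a median depth of 5786 UMIs against 43601 for the others. Cd247, the zeta chain, which was not among the 9 genes, stood at 182, 219 and 187 CPM in the 3 pools.

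Among the enzymes and the adaptor, Lat was highest in WT and lowest in CD1d-deficient cells, and Lck the reverse. Lck, the first kinase of the chain, measured 895 CPM in WT (885 to 905), 992 in Jα18-deficient (984 to 999) and 1217 in CD1d-deficient cells (1199 to 1235), a log2 ratio of CD1d-deficient over WT cells of 0.44. At equal depth a UMI of Lck was found in 95.2, 95.6 and 95.2% of cells, a share too near its upper limit to tell the pools apart. Zap70, the kinase that binds phosphorylated CD3 and zeta chains, measured 256 CPM in WT (250.7 to 261), 320 in Jα18-deficient (316 to 325) and 311 in CD1d-deficient cells (302 to 321), and was found in 67.5, 67.7 and 67.0% of thinned cells.

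Lat, the scaffold that Zap70 phosphorylates, measured 783 CPM in WT (773 to 792), 679.9 in Jα18-deficient (673 to 686) and 519 in CD1d-deficient cells (507 to 531). The log2 ratios over WT cells were -0.20 and -0.59. Both the level and the share of cells followed this order, though the Jα18-deficient and CD1d-deficient intervals of the share overlap. At equal depth the share of cells with Lat was 91.0% for WT (88.2 to 93.3%), 80.7% for Jα18-deficient (77.4 to 83.7%) and 72.7% for CD1d-deficient cells (66.4 to 78.4%).

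**Figure D2:**
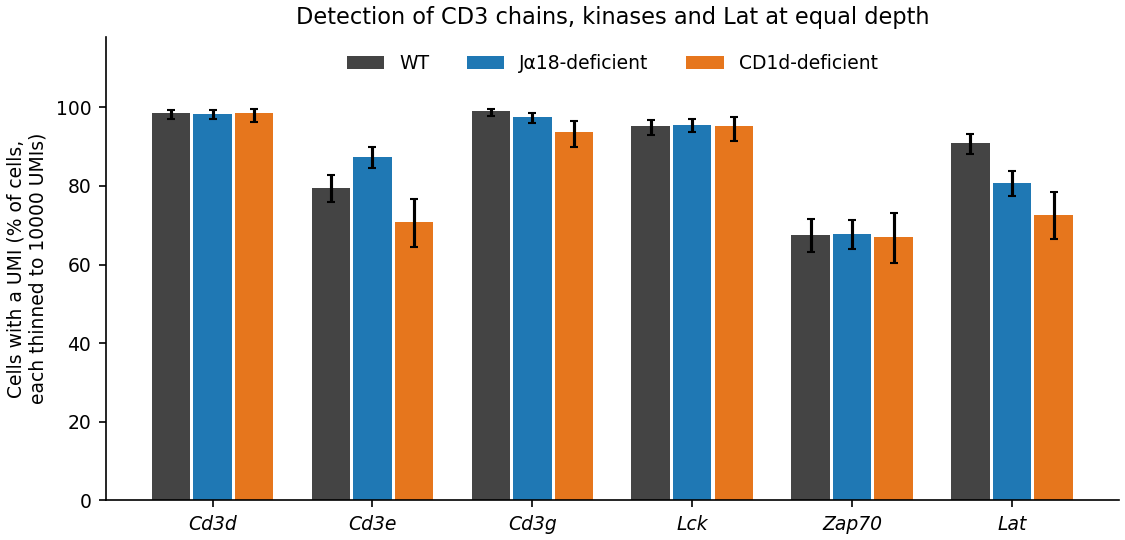
Share of cells with a UMI of each gene after each cell was thinned to 10000 UMIs, by genotype pool, with exact Clopper-Pearson 95% intervals. Lat goes down from 91.0 to 80.7 and 72.7%. Cd3e is highest in the Jα18-deficient and lowest in the CD1d-deficient pool, whereas Cd3d, Lck and Zap70 are level. For Cd3e the WT and CD1d-deficient intervals overlap, and for Lat the Jα18-deficient and CD1d-deficient intervals overlap.

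Of the 9 genes, Cd4 and Cd8a had the widest ratios between pools, in CD1d-deficient over WT cells. Cd4, the coreceptor for MHC class II, measured 93.3 CPM in WT (90.1 to 96.6), 45.7 in Jα18-deficient (44.0 to 47.5) and 2.61 in CD1d-deficient cells (1.85 to 3.59), where 38 UMIs lay in 11 cells. Cd8a, the coreceptor chain for MHC class I, went the other way, with 82.8 CPM (79.8 to 85.9), 134 (131 to 137) and 460 (449 to 471). The log2 ratios of Cd4 over WT cells were -1.03 for Jα18-deficient and -5.16 for CD1d-deficient cells, and those of Cd8a 0.70 and 2.47. Between CD1d-deficient and Jα18-deficient cells the ratios were -4.13 for Cd4 and 1.77 for Cd8a. The size of the Cd4 ratios depended on the measure. As a mean of CPM per cell, Cd4 stood at 70.1 in WT, 37.4 in Jα18-deficient and 9.40 in CD1d-deficient cells. The order was the same, but the CD1d-deficient pool lay closer to the others. For Cd8a these means were 80.9, 160 and 517. Cd8b1, the beta chain, was scarce, with 7.77 CPM in WT (6.86 to 8.77), 18.1 in Jα18-deficient (17.0 to 19.2) and 21.7 in CD1d-deficient cells (19.4 to 24.3).

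Between pools, a gene was taken to be past the fold if its log2 ratio was 1 or more in either direction. Genes needed 100 UMIs over both pools and detection in 20% of one pool's cells. Cd8b1 did not reach that share of cells, so 8 of the 9 genes were counted. Cd4 was the 1 gene lower in Jα18-deficient than in WT cells, where 0.809% of 4575 genes were lower, and 0 of the 8 were higher, beside 5.38% of all genes. With the mean over cells in place of the sum its ratio was -0.91, short of the fold. In CD1d-deficient over WT cells, Cd8a was higher, as were 5.37% of 3630 genes, and Cd4 lower, as were 3.25%. Both met the 20% limit only through the pool where they were higher, in full counts of unequal depth. Cd8a was in 60.5% of CD1d-deficient and 15.6% of WT cells, and Cd4 in 2.84 and 35.6%. In CD1d-deficient over Jα18-deficient cells, Cd8a was higher, beside 2.99% of 4579 genes, and Cd4, which met the limit only through the Jα18-deficient pool, lower, beside 7.43%. With the mean over cells Cd3e also passed the fold there, at -1.01. The median log2 ratio of the 8 genes was 0.10, 0.01 and -0.08 in these comparisons, against 0.13, 0.02 and -0.10 over all genes counted. Each 2 of the 3 comparisons share a pool.

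Cells were put in coreceptor classes by at least 1 UMI of Cd4 or Cd8a at equal depth. The share of Cd8a positive cells was 7.84% for WT (41 of 523, 5.68 to 10.5%), 17.7% for Jα18-deficient (112 of 632, 14.8 to 20.9%) and 47.1% for CD1d-deficient mice (107 of 227, 40.5 to 53.9%). Cd4 positive cells made up 24.3% (127 cells, 20.7 to 28.2%), 11.9% (75 cells, 9.45 to 14.6%) and 0.881% (2 cells, 0.107 to 3.15%). At this depth double negative cells were the largest class in each pool, with 66.5, 69.5 and 51.1%, and double positive cells made up 1.34, 0.949 and 0.881%. The intervals of both single positive classes did not overlap between any pools.

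The class of a cell depended on its depth. Without thinning, the share of cells with Cd8a was 15.6% for WT, 44.7% for Jα18-deficient and 60.5% for CD1d-deficient mice. Double negative cells then made up 54.25, 41.0 and 37.5% in this order. In the CD1d-deficient pool Cd8a positive cells were then the largest class, at 59.7%. Of the 655 cells with Cd8a, 334 held it below 100 CPM, with a median depth of 80026 UMIs, and the 321 at 100 CPM or more, with a median depth of 20942, held 96.9% of its UMIs. Cells classed as double negative still held 281 UMIs of Cd4 in the WT and 309 of Cd8a in the Jα18-deficient pool in their full counts. In a cell under 10000 UMIs a single UMI already exceeds 100 CPM. By this limit 5.62, 17.1 and 41.9% of the cells in the pools, in the same order, had Cd8a and 20.4, 9.79 and 2.07% had Cd4. The order of the pools was thus the same by both measures.

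**Figure D3:**
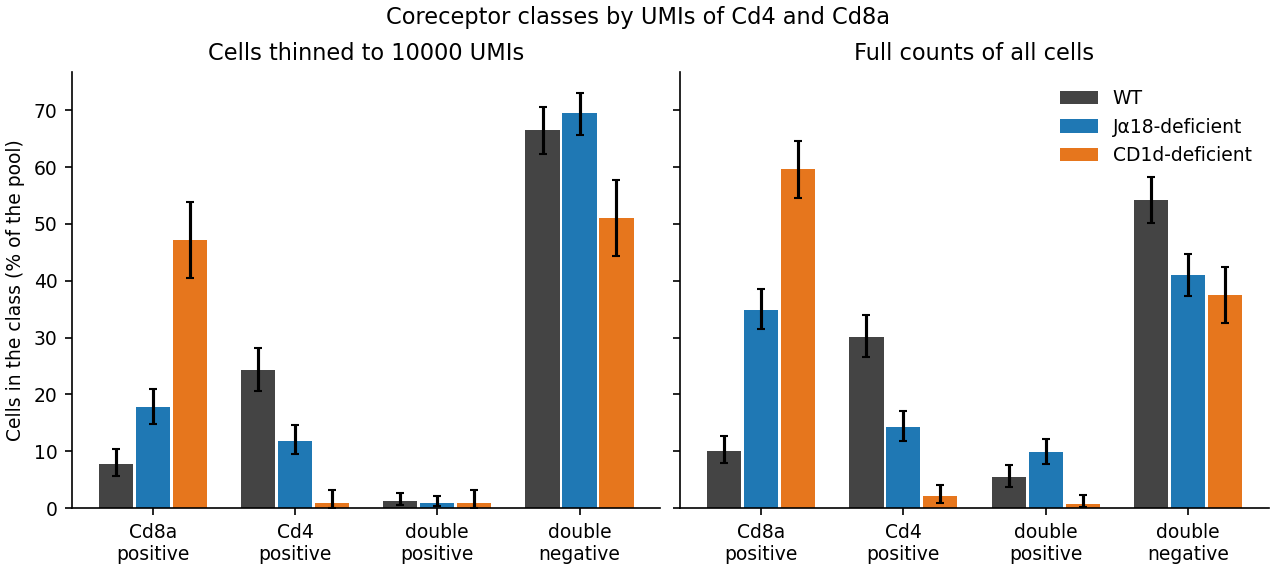
Share of cells in each coreceptor class by genotype pool, with exact Clopper-Pearson 95% intervals, in cells thinned to 10000 UMIs (left) and in the full counts of all cells (right). In both panels Cd8a positive cells are fewest in the WT pool and most frequent in the CD1d-deficient pool, and Cd4 positive cells the reverse. Double positive cells are a larger share without thinning in the WT and Jα18-deficient panels.

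Cd4 and Cd8a were seldom both high in a cell. Of the 119 cells with at least 10 UMIs of Cd4, 1 also had at least 10 of Cd8a (0.840%, 0.0213 to 4.59%), a WT cell of 84995 UMIs. Of the 119, 82 were WT, a pool where only 25 of 623 cells reached 10 UMIs of Cd8a. At a single UMI of each in the full counts, 108 of 408 cells with Cd4 also had Cd8a (26.5%), and these cells had a median depth of 95944 UMIs. Of all cells without Cd4, 41.2% had Cd8a. Within the WT pool the shares with and without Cd4 were 15.3 and 15.7%, and within the Jα18-deficient pool 40.6 and 46.0%. At equal depth, a UMI of Cd8a was found in 5.22% of WT cells with Cd4 (2.13 to 10.5%) and in 10.5% of those without (7.67 to 14.03%), intervals that overlap. In the Jα18-deficient pool it was found in 7.41% of cells with Cd4 (2.77 to 15.4%) and in 20.3% of those without (17.0 to 23.9%). The shares in cells with Cd4 rest on 7 of 134 WT and 6 of 81 Jα18-deficient cells. Whether these cells expressed both genes was not tested. In the CD1d-deficient pool only 4 thinned cells had Cd4. Conversely, Cd4 was found in 14.6% of thinned WT cells with Cd8a and in 26.7% of those without, and in 5.08 and 14.6% in the Jα18-deficient pool.

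**Figure D4:**
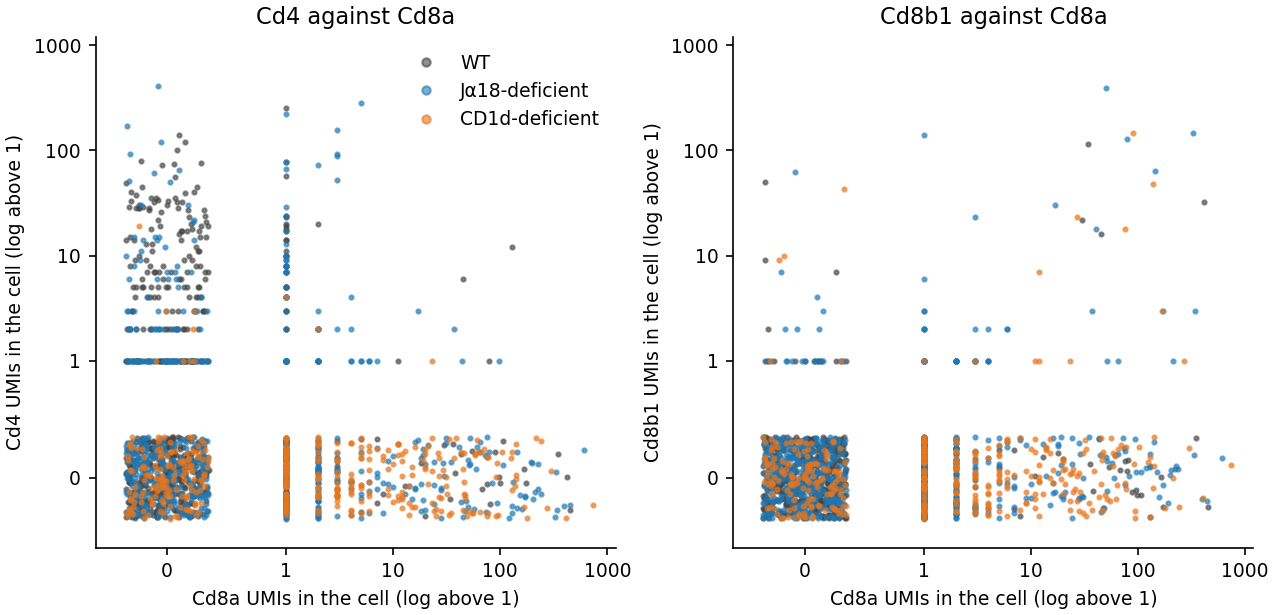
UMIs of Cd4 (left) and of Cd8b1 (right) against UMIs of Cd8a in each of the 1735 cells, in full counts on axes that are logarithmic above 1, with points at 0 spread at random. High values of Cd4 and Cd8a lie along separate axes, with 1 cell at 10 or more of both, and Cd8b1 is at 0 in most cells with high Cd8a.

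Most cells with Cd8a had no UMI of Cd8b1. Over all cells there were 17639 UMIs of Cd8a and 1674 of Cd8b1. Of the 200 cells with at least 10 UMIs of Cd8a, 174 had no Cd8b1 and 26 had at least 1 (13.0%, 8.67 to 18.5%). In the WT pool these were 4 of 25, in the Jα18-deficient 12 of 79 and among CD1d-deficient cells 10 of 96, or 16.0% (4.54 to 36.1%), 15.2% (8.10 to 25.03%) and 10.4% (5.11 to 18.3%), with intervals that overlap. By level of Cd8a, Cd8b1 was found in 3.89% of the 1080 cells at 0, 9.58% of the 334 cells below 100 CPM, 9.94% of the 181 cells at 100 to 1000 CPM and 9.29% of the 140 cells above. The cells with at least 10 UMIs of Cd8b1 numbered 4, 2, 7 and 7 in this order. The median depth of these sets was 30449, 80026, 18515 and 26382 UMIs, so their shares are not at equal depth. Transcripts do not show which dimer a cell carried on its surface, and a cell without a UMI may still hold some Cd8b1 RNA.

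At equal depth, Cd8b1 was found in 10.4% of thinned WT cells with Cd8a (5 of 48, 3.47 to 22.7%) and in 1.05% of those without (0.343 to 2.44%). In the other pools the intervals overlap, with 6.78% (2.97 to 12.9%) against 3.11% (1.79 to 5.01%) in Jα18-deficient cells and 5.50% (2.05 to 11.6%) against 3.39% (0.931 to 8.45%) in CD1d-deficient cells. The UMIs of Cd8b1 were concentrated: 20 cells with at least 10 UMIs held 90.9% of them. These were 5 WT, 9 Jα18-deficient and 6 CD1d-deficient cells, with 10 to 387 UMIs of Cd8b1 and a median of 45.5. Of the 20, 14 also had at least 10 UMIs of Cd8a, 4 had none and 1 had a UMI of Cd4, and in 11 Cd8b1 exceeded Cd8a. The cell with the most Cd8b1, from the Jα18-deficient pool, had 387 UMIs of it and 50 of Cd8a. Each of the 20 had at least 28 UMIs of Cd3d and 12 of Cd3g.

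To compare classes, the counts of each class in each pool were added up and tested with edgeR's quasi-likelihood test, with the pool as a term and the Benjamini-Hochberg adjustment over all genes tested. The replicates were pools of different genotypes. With 2 Cd4 positive cells, the CD1d-deficient pool gave no Cd4 positive sum, so comparisons with that class rest on 3 sums against 2. Since Cd4 and Cd8a defined the classes, they were not tested, which left 7 genes. Calls required an adjusted p below 0.05 together with a change of over 0.25 on the ln scale in either direction. They depended on the random thinning that set the classes: 55, 7 and 2 genes were called in Cd8a positive against Cd4 positive, Cd8a positive against double negative and Cd4 positive against double negative cells, and 29, 0 and 0 with another thinning, chosen after seeing the data.

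Cd8b1 was the 1 gene of the 7 called higher in Cd8a positive than in Cd4 positive cells, where 0.323% of 10521 genes were called higher and 0.2% lower. Cd8a positive WT, Jα18-deficient and CD1d-deficient cells held 73.1, 83.2 and 37.2 CPM of it, and Cd4 positive WT and Jα18-deficient cells 0.320 and 1.19 CPM, where it had 3 and 8 UMIs. Each Cd8a positive value lay above each Cd4 positive one, in a comparison of 3 sums with 2. These sums rested on few cells: in full counts 4 of 41, 18 of 112 and 10 of 107 Cd8a positive cells had a UMI, and 1 cell of each pool held 115 of 170, 387 of 798 and 147 of 244 UMIs. Without these 3 cells the levels were 23.9, 43.6 and 14.9 CPM. The log2 fold change came to 6.52 (standard error 1.03, adjusted p = 0.0027 by edgeR's quasi-likelihood test). In the WT pool alone the log2 ratio was 7.83, with a counting interval from 6.26 to 10.1. That interval treats UMIs as if they were spread over the cells of the class. Cd8b1 was called under 8 of 11 alternatives, and not without the WT pool (5.66), with classes from full counts (5.48) or without the top cell of each Cd8a positive sum (5.27, chosen after seeing the data), with an adjusted p of up to 0.195 over the edgeR and DESeq2 alternatives. A further alternative required at least 10 counts in every sum and left Cd8b1 untested, since its Cd4 positive sums held 3 and 8 UMIs. Against double negative cells, which had 3.51, 6.54 and 9.05 CPM, it was higher in all 3 pools by 3.47 (standard error 0.74, adjusted p = 0.11 by edgeR's quasi-likelihood test) and was not called. There 0.038% of genes were called higher and 0.0285% lower. DESeq2 called it in this comparison, with a log2 fold change of 3.50, and called 0.903% of all genes there. In Cd4 positive against double negative cells, where 0% of genes were called higher and 0.019% lower, the log2 fold change of Cd8b1 came to -3.05 (standard error 0.93, adjusted p = 0.999 by edgeR's quasi-likelihood test).

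The other 6 genes were called in no class comparison by edgeR or DESeq2. At an unadjusted p under 0.05 edgeR had 3 of the 7 genes in Cd8a positive against Cd4 positive cells (Cd3g, Cd8b1 and Lat), 2 against double negative cells (Cd3g and Cd8b1) and 1 in Cd4 positive against double negative cells (Cd8b1), where 9.02, 5.58 and 3.69% of all genes passed. Cd3g had 1691, 1653 and 1616 CPM in Cd8a positive cells of the WT, Jα18-deficient and CD1d-deficient pools and 1366, 1277 and 1392 in double negative cells. It was higher within each pool but was not called. The log2 fold change came to 0.36 (standard error 0.11, adjusted p = 0.59 by edgeR's quasi-likelihood test). Against Cd4 positive cells, with 1354 and 1181 CPM, it was 0.33 (standard error 0.13, adjusted p = 0.43 by the same edgeR test).

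Lat went the other way. It had 653, 516 and 463 CPM in Cd8a positive cells of the 3 pools, 876 and 739 in Cd4 positive cells of the WT and Jα18-deficient pools, and 765, 715 and 585 in double negative cells. Within each pool Cd8a positive cells had the least. The log2 fold change came to -0.52 against Cd4 positive cells (standard error 0.17, adjusted p = 0.29 by edgeR's quasi-likelihood test) and -0.28 against double negative cells (standard error 0.15, adjusted p = 0.89 by the same edgeR test). In Cd8a positive as in double negative cells, Lat was highest in the WT pool and lowest in the CD1d-deficient pool. This order was not tested, since each genotype was 1 pool.

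Cd3d differed little between the summed classes, with 1600 to 1658 CPM in Cd8a positive, 1475 to 1520 in Cd4 positive and 1414 to 1654 in double negative cells. Cd3e, Lck and Zap70 had no common direction over the pools in Cd8a positive against double negative cells. Zap70 had 211 CPM in Cd8a positive and 252 in double negative cells of the WT pool, 391 and 316 in the Jα18-deficient pool, and 339 and 284 in the CD1d-deficient pool. Cd3e had 222 against 246, 472 against 324 and 208 against 182 CPM in these classes and pools. Lck had 945 against 863, 944 against 1027 and 1190 against 1247 CPM.

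**Figure D5:**
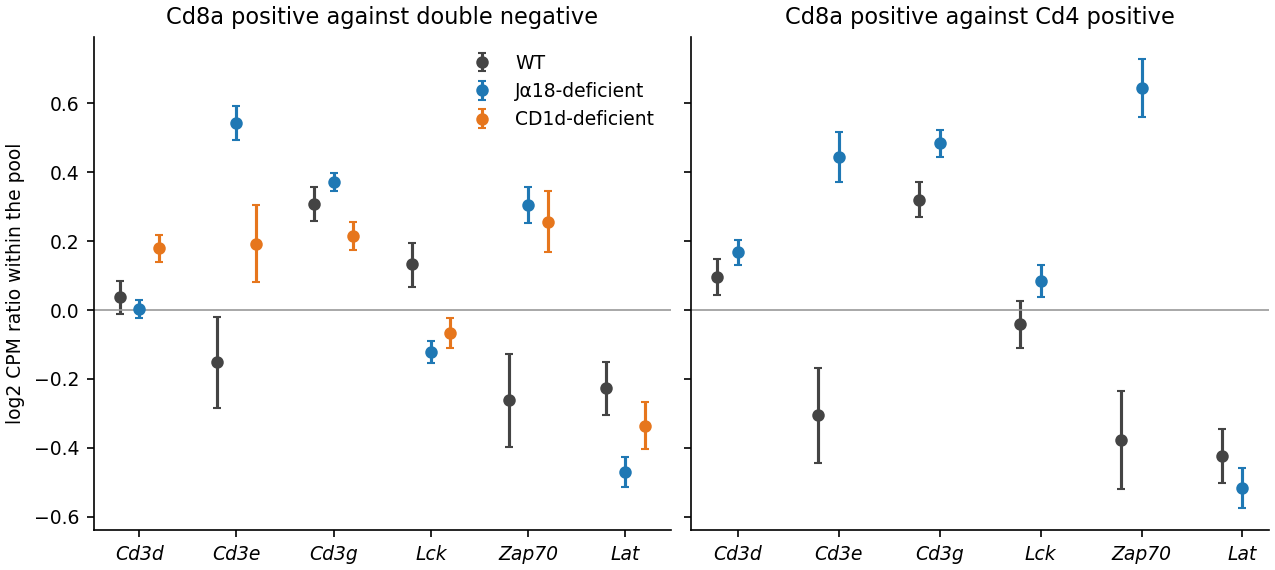
log2 ratio of the CPM in Cd8a positive cells over that in double negative cells (left) and in Cd4 positive cells (right) of the same pool, with counting intervals; the CD1d-deficient pool had too few Cd4 positive cells. Cd3g lies above 0 and Lat below 0 in every pool, whereas Cd3e and Zap70 are below 0 in the WT pool and above 0 in the others.

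Cd8a positive cells with and without Cd8b1 were also compared, but the sums with Cd8b1 held only 4, 8 and 6 cells. No gene of 6496 was called by edgeR, with 380 at an unadjusted p under 0.05 and 21 called by DESeq2. None of the 6 remaining genes had an unadjusted p under 0.05 or was called by DESeq2. The median log2 fold change over all genes tested was -0.88 (-0.70 by DESeq2), and the 6 genes lay between -0.53 (Cd3g, standard error 0.37, adjusted p = 0.98 by edgeR's quasi-likelihood test) and 0.10 (Zap70), all above that median. The median moved with the filter on low counts. It was -1.60 without a filter and -0.05 over the 1623 genes with at least 10 counts in every sum. The latter lies within the range of the 6 genes. The sums with Cd8b1 held 255074, 808417 and 352990 UMIs, and those without 2070833, 8777725 and 6201049. Whether this depth bears on the shift was not tested.

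Among 34 other genes of T cell receptor signalling, the inhibitory receptor Cd5 and the costimulatory receptor Cd28 were called lower in Cd8a positive than in Cd4 positive cells, where 0.2% of all genes were lower, and none of the 34 higher, beside 0.323%. Cd5 had 46.4, 25.5 and 22.7 CPM in Cd8a positive cells of the WT, Jα18-deficient and CD1d-deficient pools and 135 and 149 in Cd4 positive cells of the first 2. The log2 fold change came to -2.06 (standard error 0.43, adjusted p = 0.030 by edgeR's quasi-likelihood test). Cd28 had 215, 91.0 and 75.4 CPM against 405 and 444, with a log2 fold change of -1.62 (standard error 0.31, adjusted p = 0.013 by the same edgeR test). Neither was called when the WT or the Jα18-deficient pool was left out or when full counts set the classes, and Cd28 was also lost without the pool term. Over the 12 alternatives the adjusted p of the edgeR and DESeq2 tests ran from 0.00014 to 0.92 for Cd5 and from 1.2e-05 to 1 for Cd28. DESeq2 also called Cd6 and Sit1, and called 2.97% of all genes. Against double negative cells 0 of the 34 were called by edgeR and 4 had an unadjusted p under 0.05, beside 5.58% of all genes. DESeq2 called Cd5 there, and called 0.903% of all genes. Between Cd4 positive and double negative cells neither tool called any, and edgeR had 4 at an unadjusted p under 0.05, beside 3.69% of all genes. The median log2 fold change of the 34 genes was -0.19 in Cd8a positive against Cd4 positive cells, where that of all genes was -0.05.

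Between pools, Ubash3b, which encodes a phosphatase that dampens receptor signals, was the 1 of 31 counted genes of this list past the fold in Jα18-deficient over WT cells, higher by 1.57, beside 5.38% of all genes. In CD1d-deficient over WT cells, 2 of 27 were higher, Ubash3b by 1.501 and Vav1, an exchange factor that works with Lat, by 1.01, and Cd5 (-1.26), Cd6 (-1.30) and Cd28 (-1.80) were lower, beside 5.37 and 3.25% of all genes. In CD1d-deficient over Jα18-deficient cells, Themis (-1.09), Cd5 (-1.24), Cd6 (-1.74) and Cd28 (-1.14) were lower and 0 of 31 higher, beside 7.43 and 2.99% of all genes. The level of Cd28 was 355 CPM in WT, 225 in Jα18-deficient and 102 in CD1d-deficient cells.

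Across cells, the 9 genes hardly followed each other. Pearson's r of ln(1 + UMIs) in thinned cells, averaged over the 3 pools, lay between -0.08 and 0.16 for the 36 pairs, with a median of 0.03. The highest were Cd3g with Cd8a, at 0.16, and Cd8a with Cd8b1, at 0.15, and the lowest was Cd4 with Cd8a, at -0.08. The cells of a pool share libraries and each has the same thinned depth, and such weak values in sparse counts are given as a description.

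The genes most like Cd8a were Ccl4 (a chemokine), Cd7 (a surface receptor), Tyrobp and Fcer1g (signalling adaptors of NK receptors) and Gzmb (a granzyme), with a mean r of 0.47, 0.46, 0.46, 0.42 and 0.40 among 4836 genes. Their r was at least 0.32 in each pool of 523, 632 or 227 cells. For Cd4 the closest gene was Cd28, at 0.14, for Cd3e Actb, at 0.19, for Lat Ly6a, at 0.18, and for Cd8b1 Ptpn11, at 0.20, followed by Klf2 and Cd8a. Tyrobp had 1859, 2905 and 3316 CPM in Cd8a positive cells of the WT, Jα18-deficient and CD1d-deficient pools, 154 and 204 in Cd4 positive cells of the first 2, and 347, 940 and 1849 in double negative cells. Since these genes were picked for their likeness to Cd8a in the same cells, the levels are a description without a test. Of the 8 NK receptor and adaptor genes on the marker list, 4 were called higher in Cd8a positive than in Cd4 positive cells (Klrd1, Klre1, Ncr1 and Tyrobp) and 0 lower, beside 0.323 and 0.2% of all genes. Of 5 NKT genes, 4 were lower (Icos, Il4, Ly6a and Zbtb16), and of 5 naive T cell genes 0 were called. Ncr1 and Cd8b1 were still called with another random thinning, and the other 7 of these calls were lost. The marker lists were chosen with earlier results of these data known. The paper reports Ncr1, Tyrobp, Klr genes and Cd8a as high in the same subset of these cells. Tyrobp is also among the genes picked for likeness to Cd8a. The list counts are therefore a description and not independent support. The part of the cells that carry NK genes in the results for Cd8b1 was not tested.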

How the data were processed

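According to their methods, the authors trimmed reads with Cutadapt 1.15, aligned them to mm9 with TopHat2 2.0.12, removed duplicates by UMI and counted genes with HTSeq 0.10.0, and the deposited values are whole UMI counts without normalization. The stated filter (over 500 genes and 10000 to 600000 transcripts) leaves 1382 of the 1735 cells in the matrix. All 1735 cell names occurred once. Because cells were picked by hand, no doublet caller was run.

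CPM are sums over a pool, and shares of cells used cells thinned to 10000 UMIs. Cells with at least 1 thinned UMI of Cd4 or Cd8a were classed, double positive cells were left out, and full counts were summed over at least 3 cells. These sums were tested with edgeR 4.0.16 (TMM, filterByExpr, terms for class and pool) in R 4.3.3. The code was also run on simulated counts. These had no differences between pools and the same spread for every gene. The run therefore cannot show how the test treats sums that rest on few cells. Alternatives were DESeq2 1.42.0, other filters, no pool term, other class rules, thinned sums and leaving out each pool. The rule for named genes took all 9 genes, the listed signalling genes that were called or past the fold, and the 5 genes whose counts correlated best with Cd4, Cd8a, Cd8b1, Cd3e or Lat. NK, NKT, naive T cell and other marker lists were also tabulated. Members and lists were chosen with earlier results of these data known. Another random thinning, a 100 CPM limit, a limit of 10 Cd8a UMIs and leaving out the top Cd8b1 cells were chosen after seeing the data. T cell receptor segment genes were not analysed here.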

Additional observations from a re-analysis of the deposited data

Results flagged for a closer look

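For 3 genes the difference between coreceptor classes had opposite signs in different genotype pools, with counting intervals on opposite sides of 0. These intervals treat UMIs as if they were spread over the cells of a class and leave out the spread between cells. For Cd8a positive against double negative cells, edgeR's standard errors were 0.13 for Lck, 0.21 for Cd3e and 0.22 for Zap70. The difference between pools was not tested, since each genotype was 1 pool. Zap70 in Cd8a positive over Cd4 positive cells had a log2 ratio of -0.38 for WT and 0.64 for Jα18-deficient cells. Over double negative cells it was -0.26 for WT, 0.31 for Jα18-deficient and 0.26 for CD1d-deficient cells. In Cd4 positive over double negative cells Zap70 was 0.12 for WT and -0.34 for Jα18-deficient cells.

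Cd3e in Cd8a positive over Cd4 positive cells was -0.31 for WT and 0.45 for Jα18-deficient cells. Over double negative cells it was -0.15 for WT, 0.54 for Jα18-deficient and 0.19 for CD1d-deficient cells. Lck in Cd8a positive over double negative cells was 0.13 for WT, -0.12 for Jα18-deficient and -0.07 for CD1d-deficient cells, and in Cd4 positive over double negative cells 0.17 for WT and -0.21 for Jα18-deficient cells. The WT sum of Cd8a positive cells held 41 cells, the fewest of these sums.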

How the results depend on the processing

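The pool order of the Cd8a and Cd4 positive shares was the same under each alternative, but the shares moved. For Cd8a positive cells, full counts gave 34.9% (Jα18-deficient) and 59.7% (CD1d-deficient), thinning to 5000 UMIs 5.66% (WT), thinning to 20000 UMIs 24.4% (Jα18-deficient), 2 UMIs 5.16, 14.1 and 36.1% (WT, Jα18-deficient, CD1d-deficient) and 100 CPM 5.46% (WT). For Cd4 positive cells, full counts gave 30.2% (WT), 5000 UMIs 17.9 and 8.79% (WT, Jα18-deficient), 20000 UMIs 32.5% (WT), 2 UMIs 15.3 and 7.28% and 100 CPM 20.2 and 9.38% (WT, Jα18-deficient). The share of Jα18-deficient Cd8a positive cells with Cd8b1 was 14.2% in full counts and 15.2% at 10 Cd8a UMIs. With the mean of CPM per cell, the members past the fold and lower were 0 in Jα18-deficient over WT and 2 in CD1d-deficient over Jα18-deficient cells.

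The counts of called genes depended on nearly every choice; the causes were not tested. For Cd8a positive against Cd4 positive cells (55 genes), they were 312 by DESeq2, 149 without the filter, 31 without the pool term, 1 with classes from full counts, 115 with thinned sums, 29 with another random thinning and 12 to 93 with a pool left out. Against double negative cells (7 genes), they were 95 by DESeq2, 49 without the filter, 18 with at least 10 counts, 0 without the pool term, with full-count classes or with another thinning, 13 at 2 UMIs, 32 with thinned sums and 0 to 26 with a pool left out. For Cd4 positive against double negative cells (2 genes), they were 44 by DESeq2, 26 without the filter, 0 without the pool term, with full-count classes, thinned sums or another thinning, and 3 to 7 with a pool left out. For cells with and without Cd8b1 (0 genes), they were 21 by DESeq2, 3 with at least 10 counts, 2 at 2 UMIs, 4 with thinned sums, 1 with another thinning and 0 to 6 with a pool left out. Where a pool was left out, a class with 1 sum was assumed to vary like the others. For single genes of the 9, no fold change past a threshold reversed. No paired analysis was possible because cell names carry no replicate number of the libraries, and only the pool term tied the classes of a genotype to each other.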
